A study of Arabidopsis thaliana with 11 samples.

Results

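Glutathione transferases (GSTs) of the tau and phi classes were followed in Arabidopsis thaliana seedlings that carry the xpo4-2 mutation, which affects a nuclear transport receptor, the cpr5 mutation, or both. Members were taken by locus code from a list of 41 genes, 28 of the tau class (GSTU) and 13 of the phi class (GSTF). Of these, 40 had a row in the table of 22160 genes, and all 40 passed the filter on low counts, which left 21580 genes for testing. GSTU15 had no row there, and its deposited TPM, the level per transcript length, ran from 0 to 0.282 over the libraries. Seedlings of the accession Col-0 (wild type, 3 libraries), xpo4-2 (2 libraries), cpr5 (3 libraries) and xpo4-2 cpr5 (3 libraries) were harvested whole at 10 days from diluted MS medium with sucrose, without any treatment. Comparisons with the same control libraries are not independent of each other. The labels name no allele number for cpr5, and no separate plates or sowings for the replicates, so p-values reflect the spread of these libraries, which may be technical. The title of the series names immune activation in cpr5 and a negative role of XPO4 in it, and the comparisons below ask how the GST transcripts stand in each genotype.

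GSTs join the tripeptide glutathione to electrophilic compounds, which marks them for transport into the vacuole, and some members bind or carry small molecules without conjugating them. The tau and phi classes are the large classes of plants, and many of their genes sit in tandem arrays. Several are classical markers of salicylic acid, pathogen or herbicide treatment, others serve a fixed step of secondary metabolism such as glucosinolate or anthocyanin formation. The protein CPR5 sits in the membrane at nuclear pores, and plants without it show constitutive defence with high salicylic acid. XPO4 encodes exportin-4, which carries cargo between nucleus and cytoplasm.

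Both classes hold genes whose transcripts resemble each other closely, and the pairs GSTF2 with GSTF3 and GSTF6 with GSTF7 are the closest. Their coding sequences were 94.52% and 94.29% identical, with 35 and 36 differing columns, and the next pair, GSTU1 with GSTU2, was at 85.55%. The first 120 bases of the 4 phi coding sequences, from the RefSeq annotation of TAIR10.1 on the minus strand, are given here because reads from such stretches can be shared. Capitals mark the bases that differ within a pair, 4 in the first and 2 in the second.
GSTF2, chr4:1111412-1111531: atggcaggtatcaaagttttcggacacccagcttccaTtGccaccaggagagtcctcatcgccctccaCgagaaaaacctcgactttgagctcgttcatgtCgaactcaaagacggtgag
GSTF3, chr2:851987-852106: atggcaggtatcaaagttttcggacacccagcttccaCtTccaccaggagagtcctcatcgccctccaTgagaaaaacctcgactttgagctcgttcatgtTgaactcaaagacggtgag
GSTF6, chr1:662072-662191: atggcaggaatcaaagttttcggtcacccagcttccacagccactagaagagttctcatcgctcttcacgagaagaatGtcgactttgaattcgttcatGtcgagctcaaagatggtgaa
GSTF7, chr1:659586-659705: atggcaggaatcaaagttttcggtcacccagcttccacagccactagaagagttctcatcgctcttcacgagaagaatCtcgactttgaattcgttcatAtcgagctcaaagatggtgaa
Of all stretches of 31 bases in its transcripts, GSTF6 shared 17.2% with another member, GSTF7 17.2%, GSTF3 13.9% and GSTF2 9.78%, and every other member shared 4.15% or less. No source used here says how reads that match several genes were treated in the counts, so the split within these 2 pairs is uncertain. This bears most on GSTF3, which had far fewer counts than GSTF2.

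The promoters of the 3 members with the largest rises and of the member with the largest fall in the double mutant against wild type are shown next. Each is the run of 250 bases before the annotated gene start, read on the strand of the gene (minus for all 4) from TAIR10.1. Capitals mark TGACG, the core of sites bound by TGA factors, and TTGAC, the core of W-boxes bound by WRKY factors, searched on both strands, where the reverse strand reads CGTCA and GTCAA. The letters TTGACG hold both.
GSTF3, chr2:852322-852571: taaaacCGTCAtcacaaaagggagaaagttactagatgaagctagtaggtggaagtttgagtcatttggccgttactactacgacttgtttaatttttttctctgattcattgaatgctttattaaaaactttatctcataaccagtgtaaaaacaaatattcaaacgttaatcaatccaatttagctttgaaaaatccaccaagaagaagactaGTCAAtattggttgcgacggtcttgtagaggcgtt
GSTU10, chr1:28024861-28025110: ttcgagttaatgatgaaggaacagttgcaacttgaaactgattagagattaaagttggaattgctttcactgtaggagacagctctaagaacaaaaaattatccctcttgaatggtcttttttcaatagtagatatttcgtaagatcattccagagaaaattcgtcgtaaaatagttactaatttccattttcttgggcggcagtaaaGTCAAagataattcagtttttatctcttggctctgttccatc
GSTF2, chr4:1112034-1112283: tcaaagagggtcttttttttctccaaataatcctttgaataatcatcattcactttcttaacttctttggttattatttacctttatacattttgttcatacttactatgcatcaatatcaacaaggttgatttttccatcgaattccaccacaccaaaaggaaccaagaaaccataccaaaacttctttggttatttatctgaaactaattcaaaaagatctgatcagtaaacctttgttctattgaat
GSTU5, chr2:12625791-12626040: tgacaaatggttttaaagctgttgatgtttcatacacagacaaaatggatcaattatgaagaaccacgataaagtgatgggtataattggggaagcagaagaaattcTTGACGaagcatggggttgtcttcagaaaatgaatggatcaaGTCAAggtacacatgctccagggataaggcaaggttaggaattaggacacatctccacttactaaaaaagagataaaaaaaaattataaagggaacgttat
TGACG stood in this window of 14 of the 41 members (34.1%), against 18.6% of 27443 genes of the annotation. TTGAC stood in 24 of 41 (58.5%), against 44.9% of the genes. A match of these letters is a description of the sequence and not a measured site. The GSTF2 window held neither word.

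The libraries held 16922732 to 23088104 counts, so that a single count is worth 0.0433 to 0.0591 CPM (counts scaled to a common library total). Levels below are CPM scaled with the TMM factors of edgeR, as values per library or as mean ± SD with the n given above. XPO4 transcripts checked the labels, with 19.6 to 23.5 CPM in wild type and 18.3 to 27.7 for cpr5, against 1 and 4.8 for xpo4-2 and 0 to 2.27 for the double mutant. CPR5 transcripts were at 15 to 17.8 CPM in cpr5 against 8.08 to 13.3 in wild type, which checks nothing if the mutation leaves the transcript in place. Wild-type libraries stood apart for many GSTs: wild-type replicate 1 was the lowest of the 3 for 29 of the 40 members (72.5%) against 36.3% of all genes tested, and replicate 3 was the highest for 27 (67.5%) against 36.5%. Of the 2 xpo4-2 libraries, replicate 2 was above replicate 1 for 29 members (72.5%) against 47.5% of all genes. In whole seedlings, fewer cells of a type and less RNA per cell cannot be told apart. The summed level of 8 markers of green shoot tissue was 27517 ± 6425 CPM in wild type, 27247 ± 934 in cpr5 and 35925 ± 5601 in xpo4-2, but 7395 ± 1407 in the double mutant. There all 8 were called lower than in each other genotype. Of all genes tested, 19.1% were lower against wild type, 12.9% against cpr5 and 15.5% against xpo4-2. Summed levels of 12 root markers ran from 655 to 1553 CPM in wild type, 813 to 1579 for xpo4-2, 1375 to 1438 for cpr5 and 1008 to 1666 for the double mutant. Of the 12, 4 were called higher in xpo4-2 cpr5 than in wild type (33.3%), beside 18.1% of all genes tested. The 4 seed storage markers had no row in the count table, and their TPM was at most 0.484 in any library. The part of these tissue markers in the GST results was not tested.

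**Figure D1:**
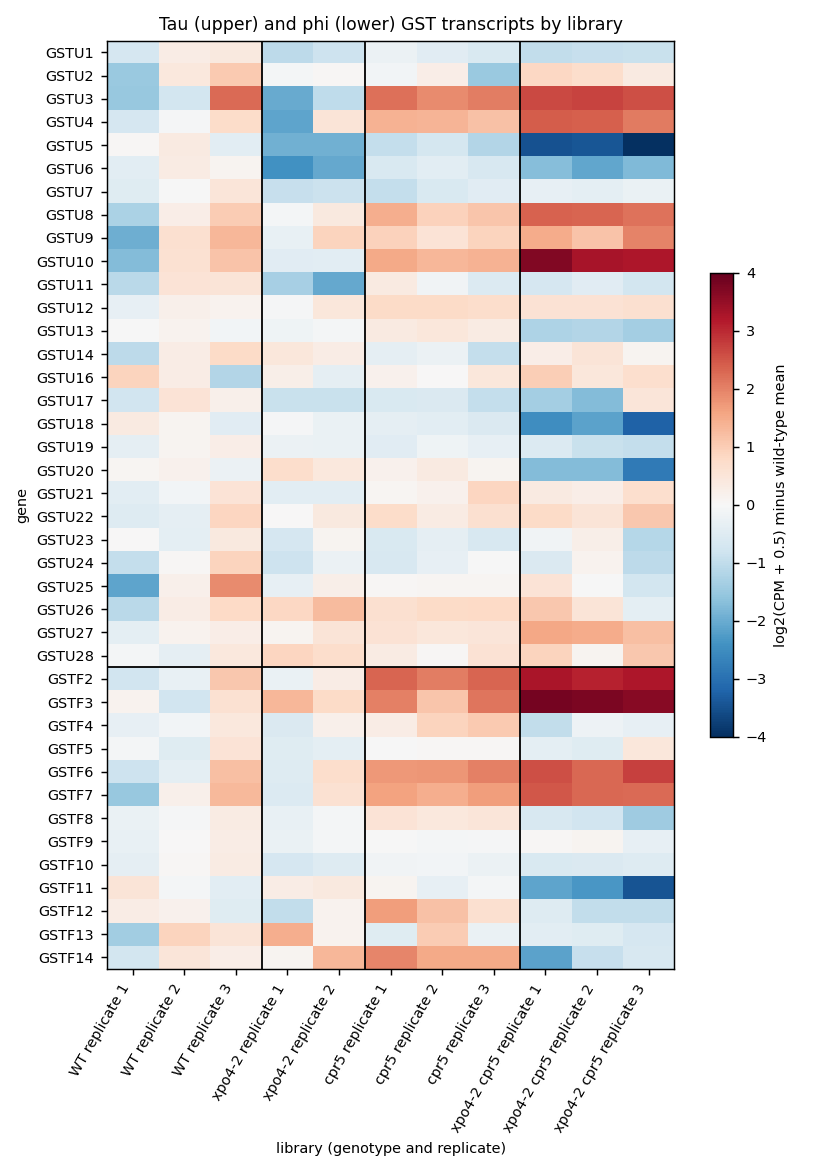
Level of 40 GST transcripts (rows, tau above and phi below the line) in 11 libraries (columns, grouped by genotype), as log2(CPM + 0.5) minus the wild-type mean, with red for higher and blue for lower. GSTF2, GSTF3 and GSTU10 are red in all cpr5 and double mutant libraries, GSTU5 is blue in all mutant libraries, and wild-type replicates 1 and 3 differ for many members.

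The summed level of each class follows, which a few abundant members carry and for which no test was run. Summed over its 27 members, the tau class was at 2824, 3575 and 2724 CPM in wild type, 1575 and 1577 for xpo4-2, 2093, 2354 and 1952 for cpr5, and 1209, 1101 and 927 for the double mutant. No mutant library reached the lowest wild-type library, and the double mutant lay below every other library on this scale. In summed TPM the double mutant, at 1653, 1421 and 1346, overlapped xpo4-2, at 1484 and 1663. The 13 phi members summed to 3192, 4128 and 5606 CPM in wild type, 3047 and 3738 for xpo4-2, 5754, 5449.8 and 5710.3 for cpr5, and 6129, 5652 and 5671 for the double mutant. The cpr5 and double mutant values overlapped each other on this scale, and the highest wild-type library lay above the lowest cpr5 library. In summed TPM the double mutant, at 7541, 6532 and 7581, lay above cpr5, at 5086, 5129 and 5574. The share of counts did not overlap either, with 0.641 to 0.699% against 0.528 to 0.559%. Neither scale uses the TMM factors, and both place the median gene higher in the double mutant than in cpr5. That shift was 0.31 on the log2 scale in TPM (with 0.5 added) and 0.27 with library totals alone. The part of this shift in the phi sums was not tested. The median log2 fold change of the members in the double mutant against wild type was 0.15 for the tau class, with 4 risers and 7 fallers, and -0.57 for the phi class, with 4 risers and 3 fallers, so medians and sums differ in direction. In that comparison 18.1% of all genes tested rose and 19.1% fell.

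The make-up of each class also differed, which is given per transcript length as the share of the class's summed TPM. GSTU5 made up 55.2 ± 8.86% of tau TPM in wild type, 40 ± 2.79% in cpr5, 27 ± 0.193% in xpo4-2 and 10.3 ± 3.07% in the double mutant. GSTU4 went the other way and held 14 ± 0.479% in the double mutant against 3.82 ± 0.278% in cpr5. In the phi class GSTF10 held 49 ± 3.56% in wild type and 22.8 ± 1.49% in the double mutant. GSTF2 held 3.83 ± 1.59% in wild type, 12.8 ± 1.18% in cpr5 and 23.1 ± 0.561% in the double mutant, and GSTF6 held 5.56 ± 3.51%, 14.9 ± 1.62% and 21.8 ± 3.49% in the same order. In the double mutant the largest phi shares were those of GSTF2, GSTF10 and GSTF6, and GSTU19 held 29.5 ± 1.99% of tau TPM.

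**Figure D2:**
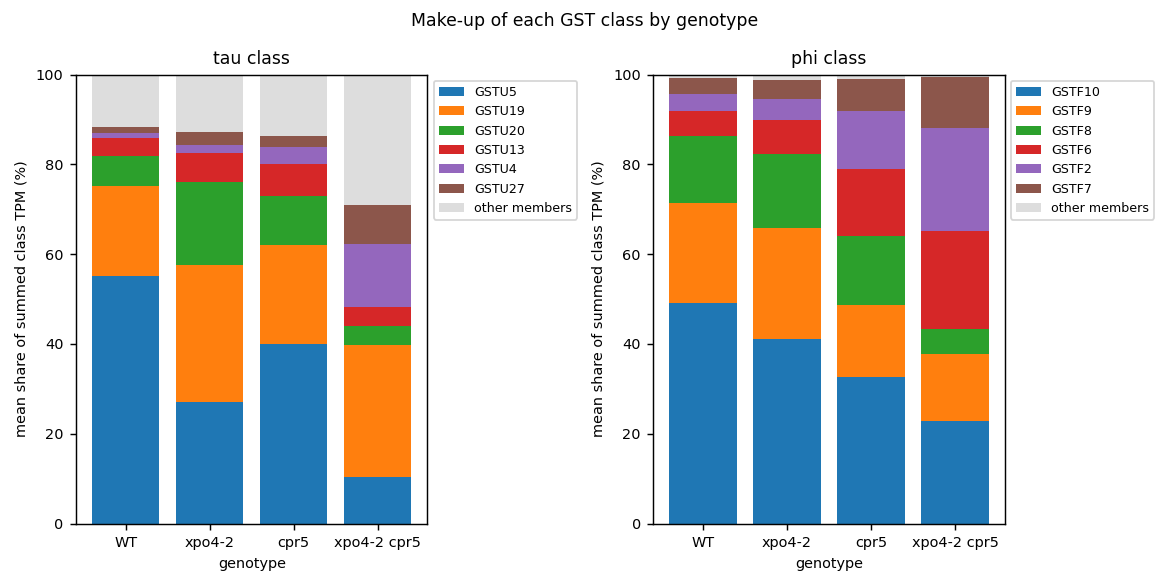
Mean share of the summed TPM of the tau class (left) and phi class (right) held by 6 members each and by all other members, for the 4 genotypes. GSTU5 shrinks from 55.2% in wild type to 10.3% in the double mutant, and GSTF2 grows from 3.83% to 23.1%.

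In cpr5 against wild type, 2 of the 40 members rose, GSTF2 and GSTF3, and 0 fell, where 4.3% of all genes tested rose and 2.34% fell (6.64% in either direction; edgeR quasi-likelihood test, Benjamini-Hochberg adjusted p under 0.05). Both are phi members. GSTF2, which binds indole compounds such as camalexin and whose transcript responds to pathogens, auxin and ethylene, is AT4G02520 on chromosome 4 (chr4:1110343-1112033). It stood at 106, 146 and 385 CPM in wild type, 151 and 223 for xpo4-2, 921, 747 and 909 for cpr5, and 1769, 1542 and 1701 for the double mutant. Every cpr5 library was above every wild-type and xpo4-2 library, and every double mutant library above every cpr5 library. The log2 fold change in cpr5 was 2.02 ± 0.40 (SE), with an adjusted p of 0.0156 in edgeR. GSTF3, its near copy at AT2G02930 (chr2:851156-852321), was at 0.663, 0.12 and 1.1 CPM in wild type, 2.11 and 1.29 for xpo4-2, 3.74, 1.76 and 4.11 for cpr5, and 14.4, 13.7 and 12.6 for the double mutant. Its cpr5 libraries lay above the wild-type libraries but overlapped those of xpo4-2, and the log2 fold change in cpr5 was 2.32 ± 0.57 with an adjusted p of 0.0384 in edgeR. Of the GSTF2 gene, 1442 bases overlap TOC159, a chloroplast import receptor gene on the opposite strand, and while the libraries were strand-specific per the labels, no source used here states whether the counting used the strand. TOC159 fell in the double mutant against wild type by 0.66 on the log2 scale, while GSTF2 rose.

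For GSTF6 and GSTF7 the cpr5 libraries were above the wild-type libraries as well, but the spread in wild type was wide. GSTF6, which conjugates glutathione in camalexin synthesis, was at 86.6, 117 and 350.0 CPM in wild type and at 509, 525 and 626 in cpr5. GSTF7 was at 40.2, 134 and 286 CPM in wild type and 354, 315 and 371 in cpr5. With log2 fold changes of 1.58 ± 0.47 and 1.17 ± 0.53, their adjusted p-values were 0.0762 and 0.225 in edgeR. Of the 27 tau members, 0 passed in either direction, with 4 higher and 3 lower at an unadjusted p under 0.05, 1 and 2 in DESeq2, and 1 and 0 with limma on TPM. Over both classes, 3 members were lower at an unadjusted p under 0.05, 2 in DESeq2 and 0 with limma. The median log2 fold change was 0.25 over the 40 members and 0.80 over the 13 phi members, beside -0.01 over all genes tested.

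The count of 2 risers rested on single libraries. It was 6 without wild-type replicate 3, when GSTU3, GSTU8, GSTF6 and GSTF7 also passed, 1 without wild-type replicate 1, 0 without wild-type replicate 2, 0 without cpr5 replicate 1, 0 without cpr5 replicate 3, and 1 each without double mutant replicate 2 and without replicate 3. GSTF3 lost its call in 8 of 19 alternatives and GSTF2 in 4. The count of fallers, 0 in the full fit, was 3 without wild-type replicate 1 and 1 without wild-type replicate 3 or double mutant replicate 3.

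**Figure D3:**
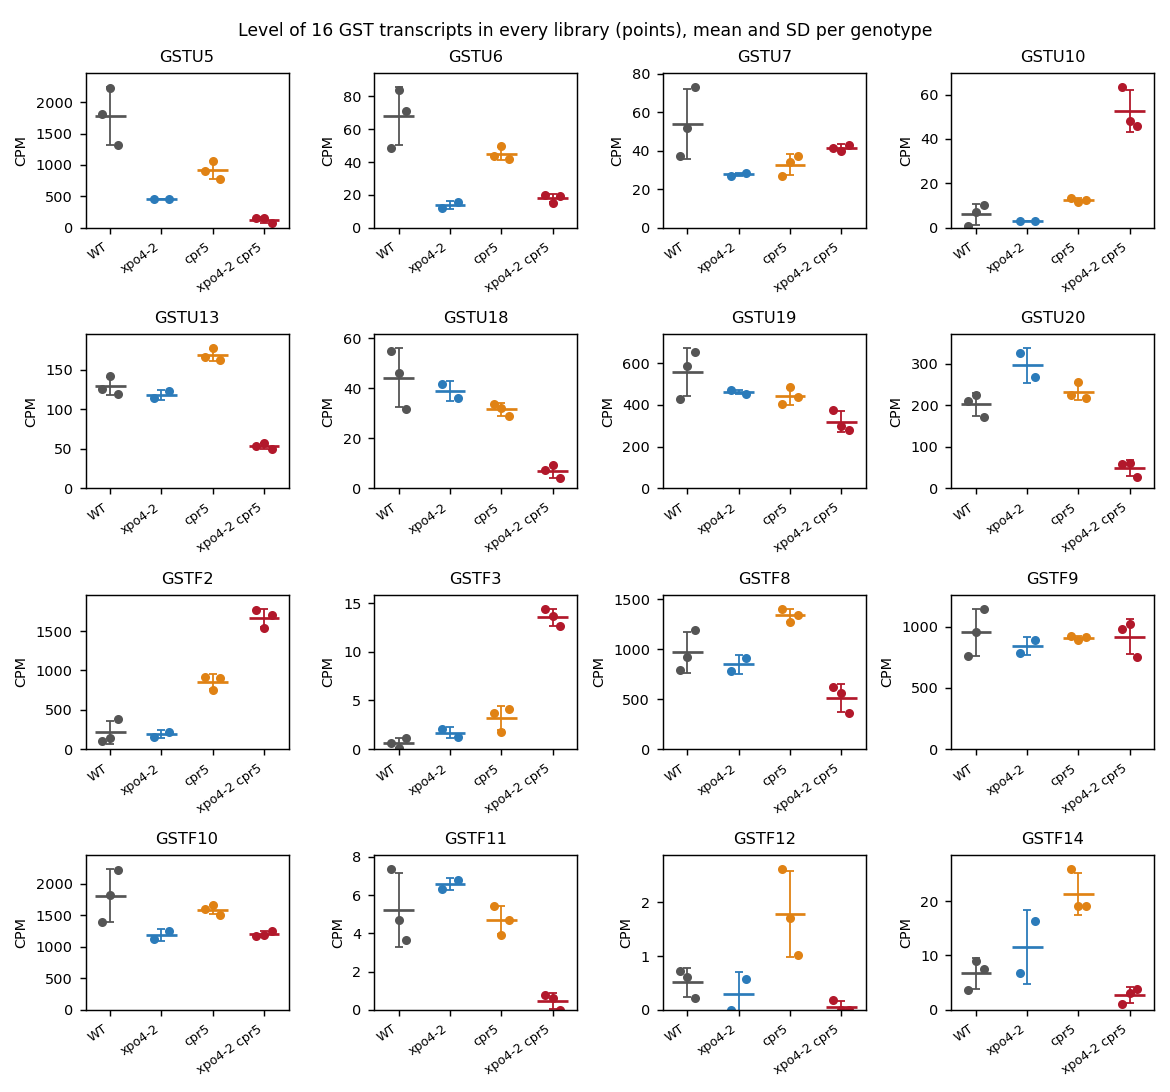
Level in CPM (linear axis from 0, own scale per gene) of 16 GST transcripts in every library, 1 point each, for the 4 genotypes, with the mean (horizontal bar) and SD (vertical bar, cut at 0). GSTF2, GSTF3 and GSTU10 are highest in all 3 double mutant libraries, and GSTU5, GSTU13, GSTU18, GSTU20, GSTF8 and GSTF11 are lowest there.

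The xpo4-2 mutant had lower levels of 2 neighbouring tau genes. GSTU5, the tau transcript with the highest TPM in wild type and cpr5 but below GSTU19 in xpo4-2 and the double mutant, is AT2G29450 on chromosome 2 (chr2:12624403-12625790). It was at 1806, 2223 and 1312 CPM in wild type, 458 and 461 for xpo4-2, 906, 1060.5 and 773 for cpr5, and 156, 160.5 and 73.1 for the double mutant. The 4 genotypes did not overlap, with the order wild type, cpr5, xpo4-2, double mutant from high to low. In xpo4-2 the log2 fold change was -1.95 ± 0.34 with an adjusted p of 0.0191 in edgeR. GSTU6, the next gene of the array at AT2G29440 (chr2:12619630-12621231), was at 48.8, 83.8 and 71.0 CPM in wild type, 12.1 and 15.5 for xpo4-2, 43.5, 49.7 and 42.0 for cpr5, and 19.98, 15.4 and 19.3 for the double mutant. All xpo4-2 and double mutant libraries were below all cpr5 and wild-type libraries, and the log2 fold change in xpo4-2 was -2.30 ± 0.24 with an adjusted p of 0.00298 in edgeR.

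These 2 were the fallers in xpo4-2 among the 40 members (5%), where 1.96% of all genes tested fell and 0.755% rose, 2.72% in either direction. No member rose in edgeR, with 1 higher at an unadjusted p under 0.05 and 0 in DESeq2 and with limma on TPM. With 2 xpo4-2 libraries the count of fallers was 7 without wild-type replicate 1 and 1 without wild-type replicate 2 or without either xpo4-2 library. Leaving out an xpo4-2 library leaves a lone one, which is then assumed to vary like the other genotypes, here and in every such fit below. The count was 6 in DESeq2, where 1239 of all 21580 genes fell. It was 0 when the 2 genotypes were fitted alone, where 1 of 20430 genes fell.

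In the double mutant against wild type, 8 members rose and 10 fell, which are 20% and 25% of the 40, beside 18.1% and 19.1% of all genes tested. Both shares are near those of all genes. The risers were GSTU4, GSTU8, GSTU10, GSTU27, GSTF2, GSTF3, GSTF6 and GSTF7, with log2 fold changes of 1.41 to 4.40. The fallers were GSTU1, GSTU5, GSTU6, GSTU13, GSTU18, GSTU19, GSTU20, GSTF8, GSTF10 and GSTF11, with log2 fold changes of -0.59 to -3.78. With limma on log2(TPM + 0.5) the split was 14 risers and 6 fallers, where the median of all genes stood at 0.41, against 0.03 in edgeR.

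GSTF3 had the largest log2 fold change among the risers, 4.40 ± 0.60 with an adjusted p of 0.000307 in edgeR, from the levels given above. GSTU10, a tau member at AT1G74590 (chr1:28023627-28024860), was at 0.964, 6.91 and 10.4 CPM in wild type, 3.11 and 3.15 for xpo4-2, 13.5, 11.8 and 12.4 for cpr5, and 63.3, 48.1 and 45.9 for the double mutant. The double mutant libraries stood well above all others, and the cpr5 libraries just above wild type. The log2 fold change of GSTU10 against wild type was 3.10 ± 0.56 with an adjusted p of 0.00159 in edgeR. For GSTF2 it was 2.98 ± 0.41 with an adjusted p of 0.000346. GSTF6 reached 918, 752 and 1022 CPM and GSTF7 656, 571 and 564 CPM in the double mutant, and both passed against wild type with log2 fold changes of 2.28 and 1.96. The GSTF7 call was lost without wild-type replicate 2, at an adjusted p of 0.057.

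Among the fallers, GSTU5 had the largest log2 fold change, -3.78 ± 0.32 with an adjusted p of 2.5e-05 in edgeR. GSTF11, which acts in aliphatic glucosinolate synthesis, is AT3G03190 (chr3:734892-735987) and was at 7.35, 4.69 and 3.63 CPM in wild type, 6.34 and 6.79 for xpo4-2, 5.44, 3.93 and 4.71 for cpr5, and 0.774, 0.608 and 0 for the double mutant. All double mutant libraries were below all others, the cpr5 libraries were below those of xpo4-2, and wild type overlapped both. Its log2 fold change was -3.51 ± 0.78 with an adjusted p of 0.00513 in edgeR. All 1096 bases of the GSTF11 gene lie within NAC045 on the opposite strand, whose mean levels stood at 1.46 CPM or less over the genotypes and which passed in no comparison. GSTU18 (AT1G10360, chr1:3395551-3396953) was at 55.0, 46.2 and 31.6 CPM in wild type, 41.7 and 36.2 for xpo4-2, 33.8, 32.1 and 28.9 for cpr5, and 7.24, 9.38 and 4.1 for the double mutant. Here too the double mutant lay below all others, the cpr5 libraries lay below those of xpo4-2, and wild type overlapped both, with a log2 fold change of -2.68 ± 0.29 and an adjusted p of 8.48e-05 in edgeR.

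The double mutant was also set against cpr5, which asks what the xpo4-2 mutation adds in that background. Of the 40 members 3 rose (7.5%) and 10 fell (25%), beside 8.82% and 12.9% of all genes tested, 21.7% in either direction. The risers were GSTF3, GSTU10 and GSTU27. The fallers were GSTF4, GSTF8, GSTF11, GSTF12 and GSTF14, and GSTU5, GSTU6, GSTU13, GSTU18 and GSTU20. The median log2 fold change was -0.02 over the members and 0.01 over all genes. When libraries were scaled by their totals alone the split was 5 and 9, with the median of all genes at 0.27.

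Some of the fallers belong to pathways of secondary metabolites. GSTF12, known as TRANSPARENT TESTA 19, carries anthocyanins to the vacuole (AT5G17220, chr5:5658416-5659661). It was low throughout, at 0.723, 0.601 and 0.21 CPM in wild type, 0 and 0.577 for xpo4-2, 2.61, 1.71 and 1.03 for cpr5, and 0.182, 0 and 0 for the double mutant. Its cpr5 libraries were above all others, and the log2 fold change of the double mutant against cpr5 was -4.74 ± 1.36 with an adjusted p of 0.0313 in edgeR, a size that rests on libraries at 0 counts. The GSTF12 call was lost without each of the cpr5 libraries and without double mutant replicate 2 or 3, and its log2 fold change then and in the other alternatives ran from -8.10 to -2.12. GSTF11 fell by 3.36 on the log2 scale against cpr5, with an adjusted p of 0.012 in edgeR. GSTU20, which acts in glucosinolate synthesis and binds the jasmonate enzyme FIN219, is AT1G78370 (chr1:29484120-29485389). It was at 210.5, 224 and 171 CPM in wild type, 326 and 267 for xpo4-2, 225, 256 and 217 for cpr5, and 59.6, 60.3 and 28.1 for the double mutant. The xpo4-2 libraries were the highest and the double mutant the lowest without overlap, with a log2 fold change against cpr5 of -2.24 ± 0.26 and an adjusted p of 0.00035 in edgeR.

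GSTF14 (AT1G49860, chr1:18458526-18459969) was at 3.56, 9.02 and 7.58 CPM in wild type, 6.78 and 16.4 for xpo4-2, 25.9, 19.1 and 19.1 for cpr5, and 1.05, 3.09 and 3.9 for the double mutant. It was highest in cpr5 and lowest in the double mutant, where 1 library overlapped the wild-type range. The log2 fold change against cpr5 was -2.99 ± 0.52 with an adjusted p of 0.00286 in edgeR. GSTU5 and GSTU18 fell by 2.81 and 2.20 on the log2 scale. GSTF4 fell by 1.37 with an adjusted p of 0.0248, a call lost in 7 of 19 alternatives.

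GSTF2 averaged 859 ± 97.5 CPM for cpr5 and 1671 ± 116 for the double mutant without overlap, but its log2 fold change of 0.96 ± 0.39 did not pass, with an adjusted p of 0.103 in edgeR. That value passed in DESeq2, with limma on TPM, with library totals, without wild-type replicate 1 or 3, and when the 2 genotypes were fitted alone. For GSTF3 and GSTU10 the log2 fold changes against cpr5 were 2.08 ± 0.52 and 2.06 ± 0.53, with adjusted p-values of 0.0179 and 0.02 in edgeR. GSTU27 rose by 0.92 ± 0.18 on the log2 scale, from 43.6 ± 2.02 to 82.6 ± 9.75 CPM. The count of 3 risers was 5 without wild-type replicate 1 or 3, 1 without cpr5 replicate 1 or 2 or double mutant replicate 1, and 10 with cpr5 and the double mutant fitted alone. In that last fit the risers among all genes also increased, from 1904 of 21580 to 3127 of 20569.

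**Figure D4:**
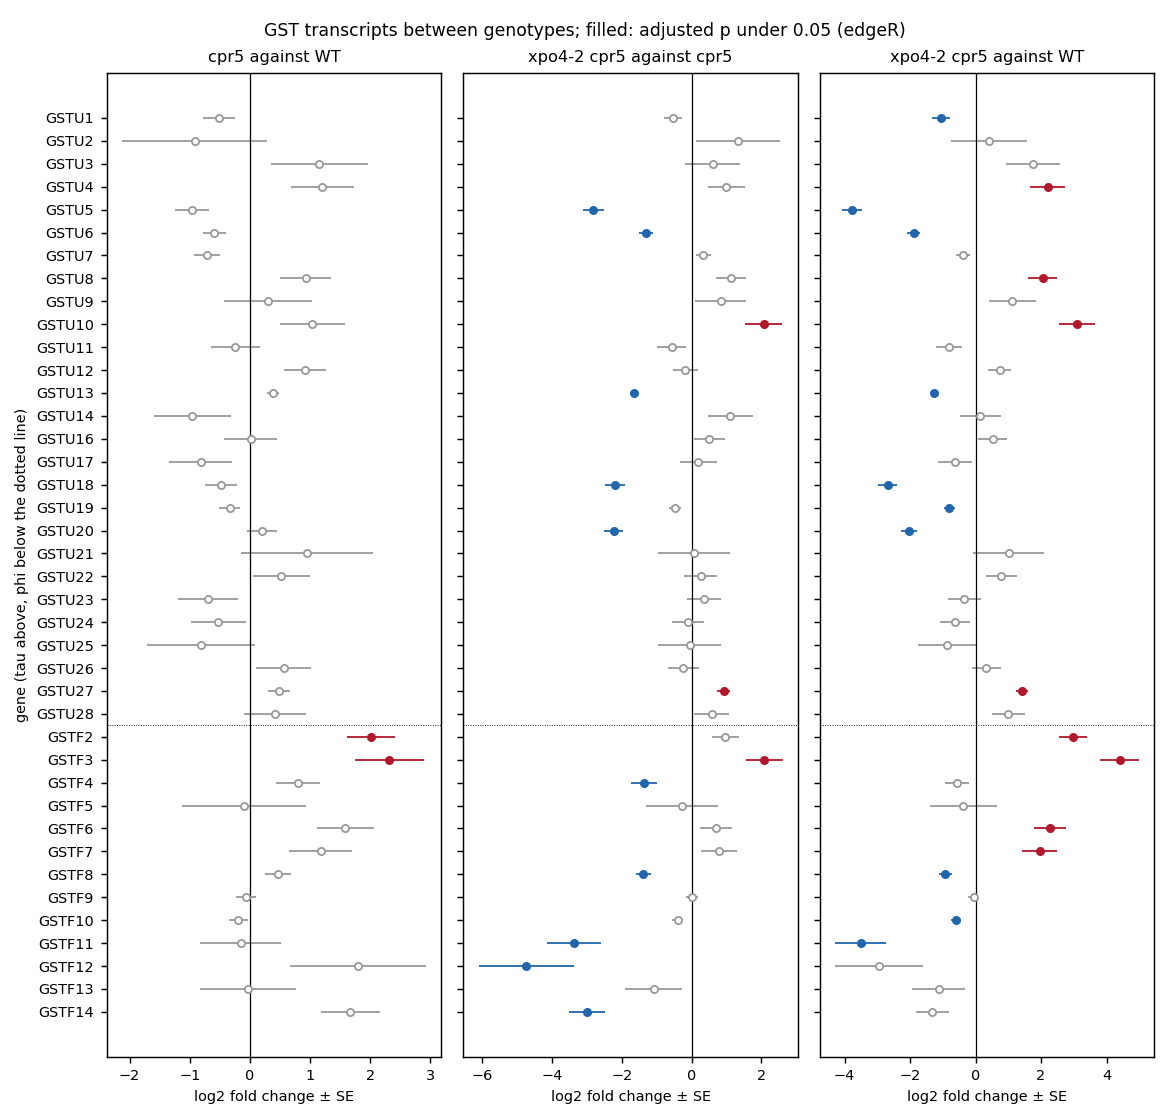
Log2 fold change ± SE of 40 GST transcripts (tau above, phi below the dotted line) for cpr5 over wild type, the double mutant over cpr5 and over wild type, with filled red (higher) and blue (lower) points for an edgeR adjusted p under 0.05 and open grey points otherwise. In cpr5 2 points are filled, against 13 and 18 in the comparisons of the double mutant.

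Against xpo4-2 the double mutant had 10 risers and 7 fallers among the members, 25% and 17.5%, beside 13.2% and 15.5% of all genes tested. The risers were GSTU3, GSTU4, GSTU8, GSTU10, GSTU21, GSTU27, GSTF2, GSTF3, GSTF6 and GSTF7, and the fallers GSTU5, GSTU13, GSTU18, GSTU20, GSTF8, GSTF11 and GSTF14. GSTU3 was at 0.5 and 1.51 CPM in xpo4-2 and at 24.7, 25.7 and 23.5 in the double mutant, and in wild type at 0.904, 1.92 and 18.9. Its wild-type libraries thus spanned nearly the whole distance. GSTU21 had 0 counts in both xpo4-2 libraries. Set against a floor of 3 counts over these libraries together, its mean of 0.412 CPM in the double mutant was at least 5.56-fold higher, and this floor covers counting error only. The count of risers was lower without xpo4-2 replicate 1, a fit with a lone xpo4-2 library. In that fit fewer of all genes tested rose as well.

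The interaction, which is the log2 effect of xpo4-2 within cpr5 seedlings after that in Col-0 is subtracted, passed for 7 members, 2 positive and 5 negative, or 5% and 12.5% beside 3.2% and 5.51% of all genes tested, 8.71% in either direction. All 5 negative ones fell in the double mutant against cpr5 and did not pass in xpo4-2 against wild type. GSTU13, which acts in indole glucosinolate metabolism during immunity, is AT1G27130 (chr1:9425280-9426897). It was at 126, 142 and 119.5 CPM in wild type, 114 and 123 for xpo4-2, 166, 178 and 163 for cpr5, and 53.9, 57.1 and 50.2 for the double mutant. Its cpr5 libraries were above and its double mutant libraries below all others, and the log2 interaction was -1.52 ± 0.16 with an adjusted p of 0.0015 in edgeR. For GSTU20 the log2 interaction was -2.79 ± 0.37, for GSTU18 -2.01 ± 0.41 and for GSTF14 -3.78 ± 0.73, with adjusted p-values of 0.00284, 0.0149 and 0.0125.

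GSTF8, a stress marker whose early induction is widely used in reporter lines, is AT2G47730 (chr2:19556326-19559485). It was at 789, 925 and 1190.0 CPM in wild type, 779 and 914 for xpo4-2, 1404, 1274 and 1342 for cpr5, and 618, 561 and 356 for the double mutant. It was highest in cpr5 and lowest in the double mutant, without overlap with the other genotypes. The log2 fold change between these was -1.39 ± 0.21 with an adjusted p of 0.00153, and the interaction -1.20 ± 0.31 with an adjusted p of 0.0414 in edgeR, which was lost in 12 of 18 alternatives.

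The interactions of GSTU13 and GSTU20 passed in all 18 alternatives, and those of GSTU18 and GSTF14 were each lost in 1, without xpo4-2 replicate 1 (adjusted p = 0.065 in edgeR) and without xpo4-2 replicate 2 (adjusted p = 0.0508). The positive interactions were those of GSTU7 and GSTU10. GSTU7 (AT2G29420, chr2:12617936-12618899) was at 37.1, 51.9 and 73.0 CPM in wild type, 27.1 and 28.4 for xpo4-2, 26.8, 34.2 and 37.5 for cpr5, and 41.7, 39.7 and 43.2 for the double mutant. Its double mutant libraries lay above the cpr5 libraries and within the wild-type range, and the interaction of 1.30 ± 0.33 had an adjusted p of 0.0349 in edgeR. It was lost in 9 of 18 alternatives, and that of GSTU10, 3.02 ± 0.83 with an adjusted p of 0.049, in 13. The count of positive interactions was 7 without wild-type replicate 1, where 1122 of 21529 genes were positive, against 691 of 21580 in the full fit. It was 1 or 0 without any other wild-type, cpr5 or double mutant library, where 272 to 596 of all genes were positive. Without either xpo4-2 library both the positive and the negative count were lower, and fewer of all genes passed in both directions as well.

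GSTF10 and GSTF9 had the highest mean TPM over the genotypes among the phi members, although in the double mutant GSTF2, at 1668 ± 176 TPM, stood near GSTF10, at 1644 ± 143, and GSTF6, at 1587 ± 362, above GSTF9, at 1073 ± 126. GSTF10, also known as ERD13 for its early response to dehydration, is AT2G30870 (chr2:13141290-13142676). It was at 1389.5, 1828 and 2225 CPM in wild type, 1121 and 1250.0 for xpo4-2, 1599, 1658 and 1509 for cpr5, and 1167, 1183 and 1253 for the double mutant. The double mutant was below the cpr5 and wild-type libraries and overlapped xpo4-2, and the log2 fold change against wild type of -0.59 ± 0.16 had an adjusted p of 0.0152 in edgeR. This call was lost in 5 of 19 alternatives, among them library totals and TPM. Its neighbour GSTF9 (AT2G30860, chr2:13138882-13140392) was at 764, 955 and 1147 CPM in wild type, 786 and 892 for xpo4-2, 924, 892 and 913 for cpr5, and 982, 1021 and 753 for the double mutant. All genotypes of GSTF9 overlapped, and it passed in no comparison. GSTU19, a main enzyme of herbicide detoxification (AT1G78380, chr1:29486387-29488007), was at 429, 586 and 655 CPM in wild type, 469 and 454 for xpo4-2, 403, 483 and 436 for cpr5, and 376, 298 and 282 for the double mutant. Its double mutant libraries were the lowest, with a log2 fold change against wild type of -0.81 ± 0.17 and an adjusted p of 0.00412 in edgeR, which did not pass with limma on TPM.

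Within tandem arrays some neighbours moved the same way and others did not. In the array from GSTU1 to GSTU7 on chromosome 2, GSTU4 was called higher in xpo4-2 cpr5 than in wild type, while GSTU1, GSTU5 and GSTU6 fell and the other 3 did not pass. GSTU4 was at 18.3, 28.6 and 49.8 CPM in wild type, 6.45 and 43.0 for xpo4-2, 79.1, 76.6 and 67.5 for cpr5, and 161, 157 and 127 for the double mutant, and its gene lies next to GSTU5. Its double mutant libraries were above all others, and those of the adjacent GSTU5 below all others. The summed level of the array was 1958 ± 432 CPM in wild type, 535 ± 32.7 for xpo4-2, 1093 ± 151 for cpr5 and 372 ± 66.4 for the double mutant, most of it from GSTU5.

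In the array of GSTF4 to GSTF7 on chromosome 1, GSTF6 and GSTF7 were called higher in xpo4-2 cpr5 than in wild type, while GSTF4 did not pass there and fell against cpr5. In the array of GSTU19 to GSTU23, GSTU19 and GSTU20 fell against wild type and the other 3, all with means of 3.29 CPM or less in every genotype, did not pass. GSTU18 fell, while its neighbour GSTU17, also named ERD9, was at 10.2, 7.86 and 38.1 CPM in the double mutant and did not pass. The 2 genes overlap by 71 bases on the same strand. In the array of GSTU24 to GSTU26, which holds the enzymes of TNT and herbicide detoxification GSTU24 and GSTU25, 0 of 3 members passed in any of the 6 comparisons. Wild-type GSTU25 alone ran from 0.181 to 10.4 CPM over the 3 libraries. Besides GSTF9, the members that passed in no comparison were GSTU2, GSTU9, GSTU11, GSTU12, GSTU14, GSTU16, GSTU17, GSTU22 to GSTU26, GSTU28, GSTF5 and GSTF13, with genotype means between 0.0722 CPM for GSTF5 in xpo4-2 and 29.1 CPM for GSTU17 in wild type.

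**Figure D5:**
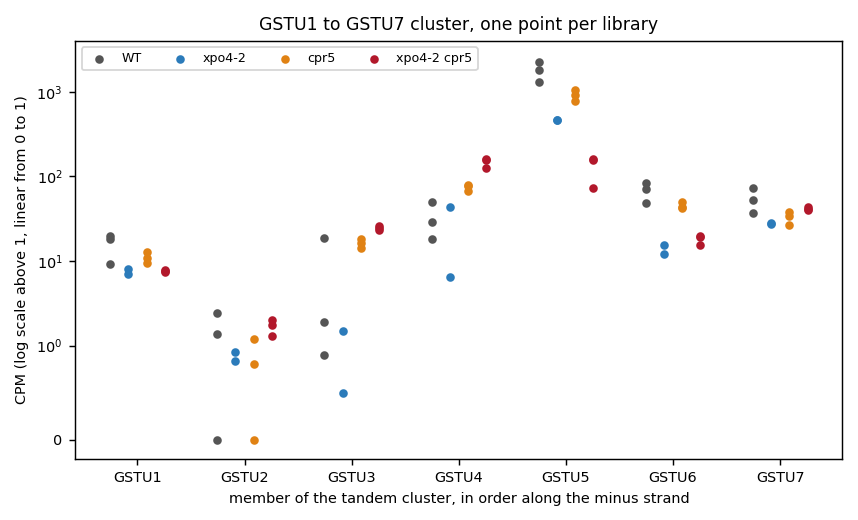
Level in CPM (log scale above 1, linear from 0 to 1) of the 7 genes of the array GSTU1 to GSTU7 in order along the minus strand, 1 point per library, coloured by genotype. GSTU4 is highest in the double mutant (127 to 161 CPM) and its neighbour GSTU5 lowest there (73.1 to 160.5 CPM).

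Among the 8 risers of the double mutant against wild type, TGACG stood in the 250-base window of GSTU27 and GSTF3. Among the 10 fallers it stood in that of GSTU1, GSTU5, GSTU6, GSTF8 and GSTF10, beside 18.6% of all genes of the annotation. TTGAC stood in that of the risers GSTU4, GSTU10, GSTF3, GSTF6 and GSTF7. It also stood in that of the fallers GSTU1, GSTU5, GSTU19, GSTU20 and GSTF10, beside 44.9% of all genes. A relation of these words to the changes was not tested.

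Genes around the GSTs were followed from lists of related functions. Of 11 tested genes of other GST classes, 6 fell and 0 rose in xpo4-2 cpr5 relative to wild type, beside 19.1% of all genes that fell and 18.1% that rose. At an unadjusted p under 0.05, 0 were higher, and DESeq2 gave 0 higher and 6 lower. Limma on TPM gave 3 higher and 4 lower, where 8217 of 21570 genes were higher and 2545 lower. DHAR1, which recycles ascorbate with glutathione, fell by 2.96 on the log2 scale, and GSTL2, a lambda class member, by 1.96. DHAR3, GSTL3, TCHQD and GSTT1 were the others. The median of the list was -0.70, beside 0.03 over all genes. Against cpr5 4 of the 11 fell, beside 12.9% of all genes.

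Of 11 measured genes of glutathione synthesis, recycling and breakdown, 1 rose and 7 fell in the double mutant against cpr5, with a median of -0.54, beside 8.82% and 12.9% of all genes. With limma on TPM, 1 rose and 4 fell, where 5458 of 21570 genes rose and 1708 fell. GR1, the cytosolic glutathione reductase, rose by 0.45, and the organellar GR2 fell by 0.54. GSH2, the second enzyme of glutathione synthesis, fell by 0.51, while GSH1, the first, did not pass, with -0.16 and an adjusted p of 0.394 in edgeR. PCS1, the phytochelatin synthase, rose by 1.00 in cpr5 against wild type and fell by 0.82 in the double mutant against cpr5. GGT1, a gamma-glutamyl transferase, rose by 0.98 and fell by 0.91 in the same comparisons.

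Among 5 ABCC transporters, which move conjugates into the vacuole or are their close relatives, 2 rose in the double mutant against cpr5 and 0 fell in edgeR, beside 8.82% of all genes that rose. At an unadjusted p under 0.05, 0 were lower. DESeq2 gave 3 higher and 0 lower, where 2670 of 21580 genes were higher. Limma on TPM gave 4 higher and 0 lower, where 5458 of 21570 genes were higher and 1708 lower. ABCC3 rose by 2.11 ± 0.28 and ABCC4 by 1.52 ± 0.25 on the log2 scale, with adjusted p-values of 0.000675 and 0.00213 in edgeR. Their interactions were 2.47 and 2.29. Of 10 genes of the TGA and SCL14 route, which activates detoxification genes, TGA5, TGA6 and the GRAS protein SCL14 rose in the double mutant against cpr5 by 0.81, 0.70 and 0.50. The oxophytodienoate reductase genes OPR1 and OPR2 fell by 1.37 and 0.77, and against wild type CYP81D11, a cytochrome P450 induced with GSTs by xenobiotics, fell by 3.32. In that list 3 genes rose and 2 fell against cpr5, beside 8.82% and 12.9% of all genes, and 3 rose and 4 fell against wild type, beside 18.1% and 19.1%. With limma on TPM, 4 rose and 1 fell against cpr5, where 5458 of 21570 genes rose and 1708 fell.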

How the data were processed

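Per the labels' protocols, strand-specific mRNA libraries were made from whole seedlings. The authors' deposited table of counts holds whole numbers per gene for 11 libraries. The deposited TPM table is labelled kallisto and holds 71164 transcripts, 17151 of them assembled models. HISAT2 2.0.4, HTSeq 0.6.1p1 and the genome TAIR10 are named in the submitters' processing notes, without the role of each. Strand setting and multi-mapping treatment are not given in the sources used here. Every gene had at least 5 counts in 2 libraries, so a filter preceded deposit. Log2 of count over TPM varied within genes with an SD of 0.0146 over 5998 genes, so TPM is no independent measurement and the counts may be rounded estimates. Without molecular identifiers, floors cover counting error only, while standard errors and SDs also take in the spread between libraries.

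Counts were tested with edgeR 4.0.16 in R 4.3.3 (filterByExpr, which removed 580 genes, TMM factors, glmQLFit and glmQLFTest) with all 11 libraries and their 4 genotypes fitted together, for 6 comparisons. Adjusted p-values (Benjamini-Hochberg) run over all 21580 genes, with a threshold of 0.05. Standard errors are the absolute log2 fold change divided by the root of F. Gene TPM was summed over annotated transcripts. On simulated data for the double mutant against cpr5 with 21224 genes, 42 of 100 genes changed 2-fold and 90 of 100 changed 4-fold were recovered. Only these genes were changed there, and low genes were not among them. In the real comparison 4682 of 21580 genes passed, so the rates do not carry over to it or to low members. The 19 alternatives were DESeq2 1.42.0, limma 3.58.1 on log2(TPM + 0.5) and log2(TPM + 0.1), median-ratio factors, library totals, no filter, a replicate block, the compared genotypes alone, and each library left out. Values per library are given for the members with the largest changes among those that passed, those that passed in xpo4-2 or the interaction, and the 2 most abundant of each class. GSTF6, GSTF7, GSTU4, GSTU3 and GSTU17 were added after their values were seen. The members and lists were chosen with earlier results of these data known. Sequences were read with Biopython 1.88 from RefSeq TAIR10.1, whose gene table matched 22011 of 22160 locus codes. Figures were drawn with matplotlib 3.10.9.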

Additional observations from a re-analysis of the deposited data

Results flagged for a closer look

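In 7 members the effect of xpo4-2 differed between the wild-type and the cpr5 background by the test of the interaction in edgeR. These are 5% positive and 12.5% negative of the 40, beside 3.2% and 5.51% of all genes tested. The calls of GSTU7, GSTU10 and GSTF8 were lost in many of the alternatives, as given above. The log2 difference was 1.3 for GSTU7, 3.02 for GSTU10, -1.52 for GSTU13, -2.01 for GSTU18, -2.79 for GSTU20, -1.2 for GSTF8 and -3.78 for GSTF14. All 5 negative values came with lower levels in all double mutant libraries than in all cpr5 libraries. The green shoot markers moved in the same sense, with 8 of 8 negative interactions, beside 5.51% of all genes tested. Their part in these results was not tested.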

How the results depend on the processing

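Of 240 pairs of member and comparison, 59 passed, 33 of them under every alternative tried and 37 under every fit that left out a library. No call reversed its direction. DESeq2 gave 6 lower members in xpo4-2 against wild type, beside 1239 of all 21580 genes. It gave 5 higher and 2 lower in cpr5 against wild type, beside 1531 and 1109 genes. For the double mutant against cpr5 it gave 5 higher, beside 2670 genes. Fits of the compared genotypes alone gave 0 lower in xpo4-2, beside 1 of 20430 genes, and 1 higher in cpr5, beside 660 of 20210. They gave 10 higher in the double mutant against cpr5, beside 3127 of 20569. Limma on log2(TPM + 0.5) gave 14 higher and 6 lower in the double mutant against wild type and 5 higher against cpr5, and with a pseudocount of 0.1 it gave 6 lower and 5 higher. Over all 21570 genes the first of these gave 8217 higher and 2545 lower against wild type and 5458 higher against cpr5. Library totals gave 5 higher in the double mutant against cpr5, beside 4247 of 21580 genes. Leaving out libraries gave 1 to 7 lower members in xpo4-2, 0 to 6 higher and 0 to 3 lower in cpr5, 1 to 5 higher in the double mutant against cpr5, 5 to 12 higher against xpo4-2, 0 to 7 positive interactions and 3 to 6 negative ones. Calls over all genes moved as well. In cpr5 against wild type, 357 genes were higher without cpr5 replicate 1 and 1274 without wild-type replicate 3. The causes were not tested.

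Whether the replicate numbers pair the libraries is not known. Correlations of deviations between same-numbered libraries ran from -0.0877 to 0.214, the highest for replicate 1 of wild type with replicate 1 of xpo4-2. With so few libraries per genotype, such correlations cannot exclude a shared batch. With the replicate block 5 members were higher and 1 was lower in cpr5 against wild type, and 1 interaction was positive. With 2 xpo4-2 libraries and wild-type libraries that differ in many GSTs, calls in xpo4-2, cpr5 and the interaction were the least stable. Members under about 1 CPM, such as GSTF5, GSTF12 and GSTU21, are limited by depth.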
